A study of Mus musculus with 12 samples.

Results

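The genes described are Srebf1, the gene of the transcription factor SREBP-1, and 9 lipid enzyme genes that act around it: Acly, Acss2, Acaca, Fasn, Elovl6, Elovl5, Scd1, Scd2 and Lpcat3. They were chosen by symbol, as the rows of the read-count table that carry these names, and make up 10 of its 23965 gene rows. Ventral midbrain cells of E11.5 mouse embryos (embryonic stage) of the CD-1 strain had been grown as neurospheres, floating clusters of dividing neural progenitors and their progeny, for 3 days before a 5 h exposure in N2 medium. Total RNA was then sequenced from 12 libraries in 4 groups of 3. The groups received GW3965+CT99021, GW3965 alone, CT99021 alone, or no compound (control). GW3965 is an agonist of the liver X receptors (LXR), and CT99021, also known as CHIR99021, inhibits glycogen synthase kinase 3 beta. The labels' protocol names DMSO as the vehicle, while the treatment label of the control libraries reads "none". Doses, and whether embryos were pooled, are not stated in the labels used here. The labels also do not say whether the replicates were separate cultures, so every p-value below rests on differences among libraries that may be technical in origin.

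SREBP-1 is made as a membrane-bound precursor that must be cut to reach the nucleus, where it switches on genes of fatty acid synthesis. LXR, a nuclear receptor that pairs with RXR and is activated by oxidised sterols, is known in liver to raise transcription of Srebf1 itself and of some desaturase and remodelling genes directly. Glycogen synthase kinase 3 is known to mark nuclear SREBP for degradation and to mark beta-catenin, the effector of Wnt signalling, in a like way. In the developing nervous system, fatty acids made by this pathway go mainly into membranes.

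Promoter sequence is shown because Srebf1 turned out to be the member with the largest difference after GW3965, and LXR with RXR is known to bind a pair of like half-sites spaced by 4 bases (DR4). Promoter windows of 250 bases before to 50 after an annotated start were taken from RefSeq (GRCm38.p6) and matched by symbol. There were 10 windows for 8 of the 10 genes, 3 of them for Srebf1. Scd1 and Scd2 had no entry. A relaxed form of the DR4 pattern, GGTNANNNNNGGTNA on either strand, lay in 2 of the 10 windows and in 0.718% of 32851 windows of the same length. Those 2 are printed 5′ to 3′ on the strand of the gene, with the match in capitals, which reads on the opposite strand. The Srebf1 window belongs to the most downstream of its 3 starts (chr11:60210422-60210721, minus strand) and the Fasn window to its single listed start (chr11:120824498-120824797, minus strand).
Srebf1: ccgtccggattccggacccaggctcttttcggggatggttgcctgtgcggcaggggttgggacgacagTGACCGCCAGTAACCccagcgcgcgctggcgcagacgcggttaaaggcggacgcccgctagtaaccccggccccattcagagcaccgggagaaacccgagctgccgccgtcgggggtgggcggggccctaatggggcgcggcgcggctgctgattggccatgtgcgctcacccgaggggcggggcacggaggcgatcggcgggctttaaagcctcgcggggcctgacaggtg
Fasn: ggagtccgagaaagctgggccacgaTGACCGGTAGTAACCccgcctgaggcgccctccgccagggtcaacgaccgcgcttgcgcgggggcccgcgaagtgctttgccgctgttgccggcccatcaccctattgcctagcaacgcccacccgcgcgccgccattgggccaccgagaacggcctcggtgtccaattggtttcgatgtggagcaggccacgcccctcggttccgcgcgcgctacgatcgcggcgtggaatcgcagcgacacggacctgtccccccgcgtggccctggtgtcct
The matches occupy bases 69 to 83 of the Srebf1 window and bases 26 to 40 of the Fasn window, and begin 182 and 225 bases before the start. The strict pattern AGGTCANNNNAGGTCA was in 0 of the 10 windows and in 0.0152% of all windows. The sterol regulatory element TCACNCCAC, to which SREBP binds, was in 0 of the 10 and in 1.24% of all, and the TCF/LEF pattern CTTTGAT, read by beta-catenin's partners, in 0 of the 10 and in 3.73% of all. The E-box CACGTG was in 1 of the 10, that of Elovl5, and in 7.15% of all. All patterns were searched on both strands, and none overlapped another in these windows. A match is a description of letters, and no binding was measured.

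The libraries held 9646424 to 21314093 counts over gene rows. Libraries that share a replicate number deviated together from their group means, so fold changes, standard errors (SE), 95% intervals and adjusted p are given from edgeR's quasi-likelihood fit that carries replicate number as a block term, and "rose" and "fell" refer to a Benjamini-Hochberg adjusted p under 0.05 in it, over 15608 genes. The adjusted p of the same fit without the block is given beside each member's call, and for other genes the number called without it is given by list. The 4 libraries numbered 3 and replicate 2 of GW3965+CT99021 were known from earlier results of these data to stand apart from the other 7. This split was taken over and was not tested here. Where a call changed, values without the libraries numbered 3 are given. For some of the calls that changed, log2 fold changes from the 7 libraries are given. They come without p-values, because a single library with both compounds is left there. Replicate 1 of CT99021 had 7.95% of its counts on Lars2, against 0.0336% to 0.142% in the other 11. Among marker lists, all 9 neural progenitor genes were detected, with summed levels of 2558 to 4436 CPM (counts scaled to the library total), and midbrain and floor plate genes summed to 383 to 625 CPM. Mesenchyme and pericyte genes summed to 238 to 3932 CPM and erythroid genes to 2137 to 11418 CPM, while adipocyte genes stayed between 0.322 and 1.61 CPM, with Lep at 0 in every library. In bulk RNA of this kind, fewer cells of a type and less RNA per cell cannot be told apart.

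All 10 genes were read well above the filter in every library, from 127 counts for Acss2 to 51034 for Scd2. Divided by the gene length listed in the table, Scd2 was the most abundant member, at 494 ± 67.0 CPM per kb with both compounds and 229 ± 42.4 CPM per kb in control (SD, n = 3 here and below). In control libraries Acly followed at 92.3 ± 3.05 CPM per kb, then Fasn at 48.6 ± 6.71 and Elovl5 at 47.5 ± 8.59, which overlapped. Srebf1 at 20.6 ± 3.23, Scd1 at 19.6 ± 1.33 and Elovl6 at 16.8 ± 2.23 CPM per kb overlapped as well. Lpcat3 came next at 14.4 ± 0.72 CPM per kb, overlapping Elovl6, then Acaca at 11.05 ± 1.73 and Acss2 at 4.76 ± 0.05. With both compounds Srebf1 reached 58.6 ± 6.19 CPM per kb, and its lowest library overlapped the ranges of Elovl5 at 52.6 ± 5.91 and Scd1 at 47.9 ± 7.20. Acss2 was lowest there too, at 4.70 ± 0.29 CPM per kb.

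**Figure D1:**
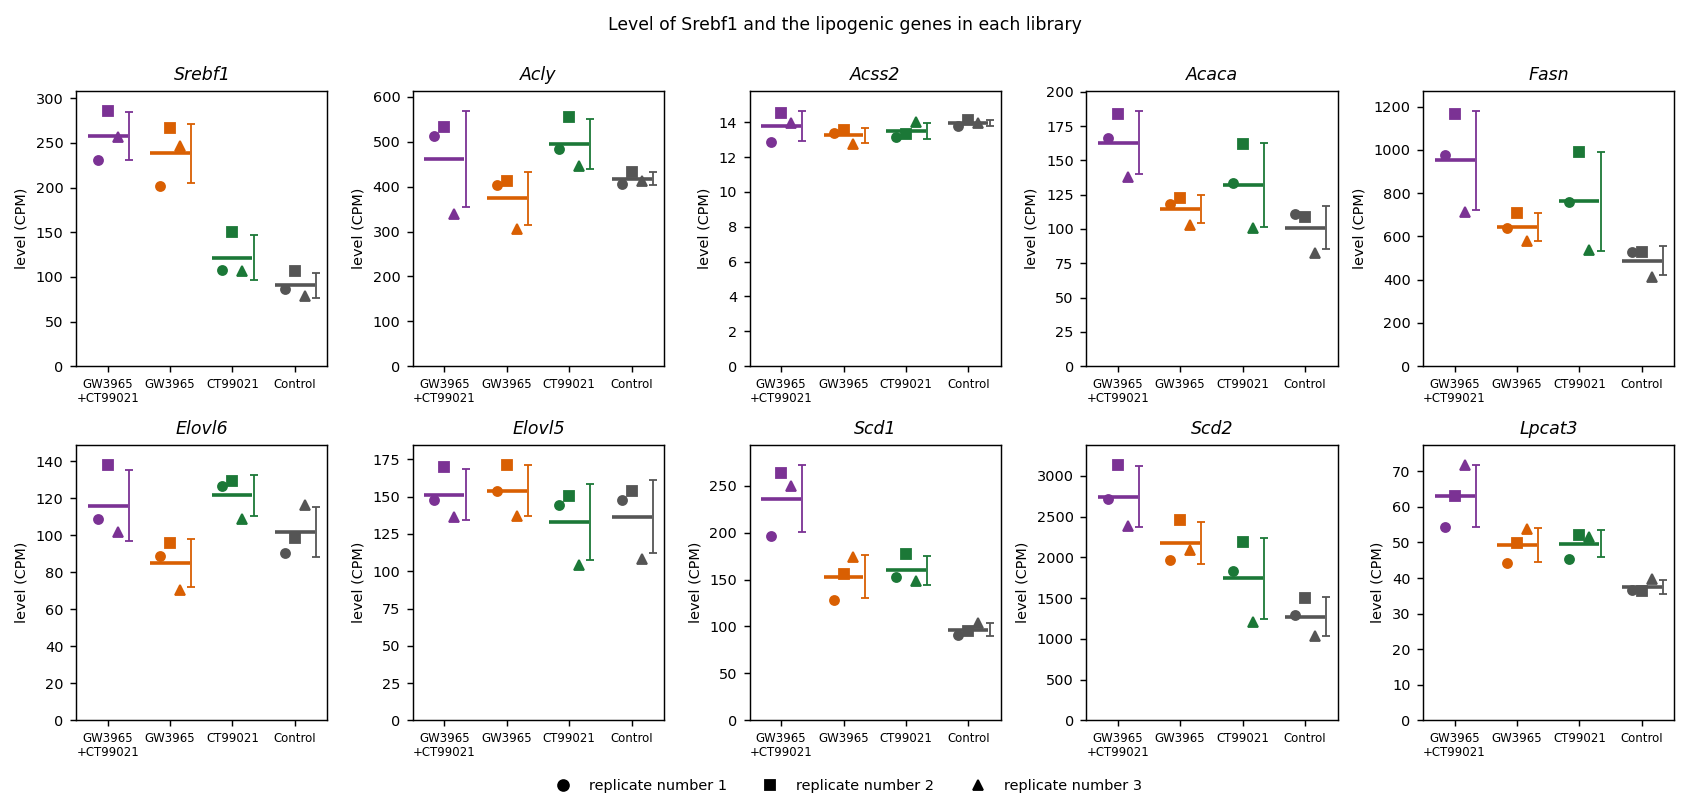
Level of each of the 10 genes (CPM, y axes from 0) in each of the 12 libraries, by group. Symbols give the replicate number, thick bars the mean and thin bars ± SD of 3 libraries. Srebf1 lies at 201 to 286 CPM in the 6 libraries with GW3965 and at 78.9 to 150 CPM in the 6 without it.

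Srebf1, the regulator (chromosome 11, position 60012590 as listed, mm9, minus strand), was higher in every library with GW3965 than in any without it. Its levels were 231, 286 and 256 CPM in libraries 1 to 3 with both compounds, 201, 267 and 246 CPM with GW3965, 108, 150 and 106 CPM with CT99021, and 86.1, 106 and 78.9 CPM in control. The 2 groups with GW3965 overlapped each other, and CT99021 overlapped control by its lowest library. GW3965 alone raised Srebf1 by a log2 fold change of 1.40 ± 0.09 (SE; 95% interval 1.20 to 1.60, edgeR adjusted p = 2.6e-04, and 0.153 without the block). It ranked at place 1 of 15608 genes by p and passed under 18 of 18 alternatives of the block fit. On top of CT99021, GW3965 raised it by 1.10 ± 0.09 (edgeR adjusted p = 0.0013, and 0.678 without the block). CT99021 alone raised Srebf1 by 0.42 ± 0.09 (edgeR adjusted p = 0.013, and 0.475 without the block). That call was lost without control replicate 2 (edgeR adjusted p = 0.0635) or without CT99021 replicate 2 (0.0657). Added to GW3965, CT99021 gave a difference of 0.12 ± 0.09 that did not pass (95% interval -0.08 to 0.31, edgeR adjusted p = 0.368). Both compounds against control raised Srebf1 by 1.51 ± 0.09, or 2.86-fold (edgeR adjusted p = 3.0e-05, and 0.00843 without the block).

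Genes that process or accompany SREBP were counted from a list. Among the 13 genes of SREBP processing and control, 0 rose and 3 fell with both compounds, where 11.3% of all genes rose and 8.95% fell, and 0 rose and 2 fell with CT99021 alone, where 8.23% rose and 7.59% fell. The median log2 fold change with both compounds was -0.02, against 0.01 over all genes. The 3 were Rxrb, an RXR gene, at -0.43 (edgeR adjusted p = 0.00657), Nr1h2, the LXR beta gene, at -0.36 (0.0209), and Mbtps1, the protease that makes the first cut in SREBP, at -0.33 (0.0153). Without the block edgeR called 0 of the 13 in the 3 comparisons against control, and with it GW3965 alone moved 0 of the 13 past the test. Srebf2, the sterol-synthesis paralog, averaged 316 ± 29.1 CPM with both compounds, 322 ± 39.3 with GW3965, 354 ± 24.9 with CT99021 and 328 ± 28.3 CPM in control, and its log2 fold change after GW3965 was -0.03 ± 0.08 (edgeR adjusted p = 0.987). Insig1, which holds SREBP in the endoplasmic reticulum, had 0.02 ± 0.10 after GW3965 (edgeR adjusted p = 0.992). Mlxipl, which encodes the glucose-responsive lipogenic factor ChREBP, was near the limit of detection, at 0.50 ± 0.53 CPM with both compounds and 0.65 ± 0.32 CPM in control.

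Acly and Acss2 supply acetyl-CoA, the substrate of the pathway. Acly, ATP citrate lyase (chromosome 11, position 100337665, minus strand), had 513, 533 and 340 CPM with both compounds, 404, 412 and 306 CPM with GW3965, 484, 555 and 446 CPM with CT99021, and 406, 433 and 414 CPM in control. All 3 CT99021 libraries lay above all 3 controls, and library 3 was the lowest in every group except control. No single treatment passed for Acly: the log2 fold change was 0.12 ± 0.11 with both compounds (95% interval -0.12 to 0.36, edgeR adjusted p = 0.467), -0.18 ± 0.11 with GW3965 (-0.42 to 0.07, 0.959) and 0.24 ± 0.11 with CT99021 (-0.0048 to 0.48, 0.171). Without the libraries numbered 3 it rose with both compounds, by 0.30 (edgeR adjusted p = 0.0106), and with CT99021, by 0.29 (0.0117). Leaving out control replicate 3 alone likewise gave 0.38 for CT99021 (edgeR adjusted p = 0.044). Against GW3965 alone, both compounds gave 0.29 ± 0.11 (edgeR adjusted p = 0.0818). This passed without GW3965+CT99021 replicate 3 (0.42, adjusted p = 0.0195) or without control replicate 3 (0.29, adjusted p = 0.042). It also passed without all libraries numbered 3 (0.34, edgeR adjusted p = 0.00644). Acss2, which makes acetyl-CoA from acetate (chromosome 2, position 155343678, plus strand), ranged only from 12.8 to 14.6 CPM over the 12 libraries. Its log2 fold changes were -0.02 ± 0.10 with both compounds (95% interval -0.24 to 0.20), -0.07 ± 0.10 with GW3965 (-0.29 to 0.15) and -0.05 ± 0.10 with CT99021 (-0.27 to 0.17). None passed edgeR's test, with adjusted p = 0.901, 0.969 and 0.783. The 3 GW3965 libraries, at 12.8 to 13.6 CPM, nevertheless all lay below the 3 controls, at 13.8 to 14.1 CPM.

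Acaca and Fasn carry out the synthesis itself. Acaca, acetyl-CoA carboxylase 1 (chromosome 11, position 84008839, plus strand), makes malonyl-CoA, the step that commits acetyl-CoA to fatty acids. It was read at 166, 184 and 138 CPM with both compounds, 118, 122 and 103 CPM with GW3965, 134, 162 and 101 CPM with CT99021, and 111, 109 and 82.7 CPM in control. The combination stood above control in every library, and the other groups overlapped control. Acaca rose by 0.69 ± 0.08 with both compounds (edgeR adjusted p = 8.9e-04, and 0.177 without the block) and by 0.38 ± 0.08 with CT99021 alone (0.0144, and 0.549 without the block). The CT99021 call of Acaca was lost without control replicate 2 (edgeR adjusted p = 0.0895) or without CT99021 replicate 2 (0.0632). After GW3965 alone it differed by 0.19 ± 0.08 (95% interval 0.01 to 0.37, edgeR adjusted p = 0.959). Adding CT99021 to GW3965 raised it by 0.50 ± 0.08 (edgeR adjusted p = 0.00322, and 0.336 without the block).

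Fasn, fatty acid synthase (chromosome 11, position 120667271, minus strand), which builds palmitate, had 975, 1167 and 713 CPM with both compounds, 638, 710 and 581 CPM with GW3965, 759, 990 and 536 CPM with CT99021, and 526, 528 and 410 CPM in control. Each treated group lay above control without overlap, and library 3 was the lowest of every group. Fasn rose by 0.94 ± 0.11 with both compounds, or 1.92-fold (edgeR adjusted p = 6.9e-04, and 0.15 without the block). It rose by 0.61 ± 0.11 with CT99021 alone (edgeR adjusted p = 0.00602, and 0.421 without the block). GW3965 alone gave 0.40 ± 0.11 (95% interval 0.17 to 0.64), at place 16 of 15608 genes by p, but this did not pass (edgeR adjusted p = 0.959). With CT99021 present, GW3965 gave 0.33 ± 0.11 (95% interval 0.10 to 0.57, edgeR adjusted p = 0.734). With GW3965 present, CT99021 raised it by 0.54 ± 0.11 (edgeR adjusted p = 0.00707, and 0.395 without the block).

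Elovl6 and Elovl5 lengthen fatty acids, Elovl6 the palmitate that Fasn releases and Elovl5 mainly polyunsaturated chains. Elovl6 (chromosome 3, position 129235203, plus strand) was read at 108, 138 and 101 CPM with both compounds, 88.5, 95.7 and 70.4 CPM with GW3965, 127, 129 and 109 CPM with CT99021, and 90.1, 98.3 and 116 CPM in control. Its 3 libraries with both compounds lay above the 3 with GW3965 alone, and the other groups overlapped control. That difference was 0.44 ± 0.13 (edgeR adjusted p = 0.0371, and 0.321 without the block). It passed under 9 of 18 alternatives, the fewest of the members' calls in the block fit. It was lost without GW3965+CT99021 replicate 1, 2 or 3 (edgeR adjusted p = 0.0778, 0.159 and 0.0508), without GW3965 replicate 1, 2 or 3 (0.0739, 0.0881 and 0.128), and without CT99021 replicate 1 or 2 (0.0526 and 0.0542). With Lars2 kept out of the library sizes it was lost too (0.0582). Against control the log2 fold change of Elovl6 was 0.18 ± 0.13 with both compounds (95% interval -0.11 to 0.47), -0.27 ± 0.13 with GW3965 (-0.56 to 0.02) and 0.25 ± 0.13 with CT99021 (-0.04 to 0.54). These did not pass edgeR's test (adjusted p = 0.361, 0.959 and 0.223), but control replicate 3 was the highest control for Elovl6, and without it the gene rose with both compounds (0.39, adjusted p = 0.0215) and with CT99021 (0.46, adjusted p = 0.0146). Without all libraries numbered 3 the values were 0.36 with both compounds (edgeR adjusted p = 0.019) and 0.43 with CT99021 (0.0115).

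Elovl5 (chromosome 9, position 77765071, plus strand) had 148, 170 and 137 CPM with both compounds, 154, 171 and 137 CPM with GW3965, 144, 151 and 104 CPM with CT99021, and 148, 154 and 108 CPM in control. All groups overlapped, with library 2 highest and library 3 lowest in each. The log2 fold change against control was 0.16 ± 0.08 with both compounds (95% interval -0.01 to 0.33, edgeR adjusted p = 0.177), 0.18 ± 0.08 with GW3965 (0.01 to 0.35, 0.959) and -0.04 ± 0.08 with CT99021 (-0.21 to 0.13, 0.763). Elovl5 passed in 0 of the 8 comparisons made here.

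Scd1 and Scd2 encode stearoyl-CoA desaturases, which put the double bond into palmitate and stearate, and Scd2 is the form known from embryonic and neural tissue. Scd1 (chromosome 19, position 44468939, minus strand) had 196, 264 and 249 CPM with both compounds, 129, 156 and 174 CPM with GW3965, 153, 177 and 149 CPM with CT99021, and 90.9, 95.2 and 104 CPM in control. Every treated library was above every control, every library with both compounds was above every library with either compound, and GW3965 and CT99021 alone overlapped. Scd1 rose by 1.28 ± 0.10 with both compounds, or 2.43-fold (edgeR adjusted p = 7.6e-05, and 0.0081 without the block). CT99021 alone raised it by 0.73 ± 0.10 (edgeR adjusted p = 0.00194, and 0.144 without the block), and CT99021 on top of GW3965 by 0.63 ± 0.10 (0.00242, and 0.159 without the block). After GW3965 alone the difference was 0.65 ± 0.10 (95% interval 0.44 to 0.87), at place 5 of 15608 by p, and missed the threshold (edgeR adjusted p = 0.135). It passed without CT99021 replicate 3 (edgeR adjusted p = 0.0272), with no filter on low counts (0.0494) and by DESeq2 with the block (adjusted p = 7.8e-07). It did not pass when any other single library was left out, with RLE factors, without all libraries numbered 3 or with Lars2 out of library sizes. In the 7 libraries that did not stand apart the log2 fold change was 0.61. GW3965 on top of CT99021 gave 0.55 ± 0.10 (95% interval 0.34 to 0.77, edgeR adjusted p = 0.352), which passed only by DESeq2 with the block (adjusted p = 2.5e-04).

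Scd2 (chromosome 19, position 44368065, plus strand) was read at 2710, 3131 and 2390 CPM with both compounds, 1967, 2463 and 2092 CPM with GW3965, 1838, 2187 and 1209 CPM with CT99021, and 1290.0, 1500.0 and 1030 CPM in control. Both groups with GW3965 lay above control without overlap, and CT99021 overlapped control through its library 3. Scd2 rose by 1.12 ± 0.11 with both compounds (edgeR adjusted p = 4.1e-04, and 0.103 without the block) and by 0.44 ± 0.11 with CT99021 (0.0293, and 0.566 without the block). The CT99021 call was lost without control replicate 1, 2 or 3 (edgeR adjusted p = 0.0964, 0.112 and 0.0859) and without CT99021 replicate 1 or 2 (0.0983 and 0.126). GW3965 alone gave 0.79 ± 0.11 (95% interval 0.54 to 1.04, edgeR adjusted p = 0.135), at place 4 of 15608 by p. This passed without CT99021 replicate 3 (edgeR adjusted p = 0.0161) and without all libraries numbered 3 (0.67, adjusted p = 0.0282). It also passed in edgeR with no filter (adjusted p = 0.0358) and by DESeq2 with the block (adjusted p = 7.1e-09). It did not pass when any other single library was left out, with RLE factors or with Lars2 out of library sizes. In the 7 libraries the log2 fold change was 0.66. GW3965 on top of CT99021 gave 0.68 ± 0.11 (95% interval 0.43 to 0.93, edgeR adjusted p = 0.334). That difference passed without the libraries numbered 3 (0.53, edgeR adjusted p = 0.0446) and by DESeq2 with the block (adjusted p = 8.5e-06). It did not pass when any single library was left out, and in the 7 libraries it was 0.56. CT99021 on top of GW3965 gave 0.33 ± 0.11 (edgeR adjusted p = 0.0672). This passed without GW3965 replicate 3 (0.45, edgeR adjusted p = 0.0152) or CT99021 replicate 3 (0.33, adjusted p = 0.0169), but without no other single library. It also passed without all libraries numbered 3 (0.38, edgeR adjusted p = 0.00399) and by DESeq2 with the block (adjusted p = 0.0285). In the 7 libraries it was 0.41. The desaturases are close paralogs, and how reads with several positions were counted is not given in the sources used here. In all 12 libraries the counts of Scd3 were 2.81% to 3.35% of those of Scd2 and the counts of Scd4 1.15% to 1.505%, whereas those of Scd1 were 6.33% to 12.3%. The values of Scd3 and Scd4 are uncertain for that reason.

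Lpcat3, which puts polyunsaturated chains into membrane phospholipids (chromosome 6, position 124613021, plus strand), had 54.3, 63.0 and 71.7 CPM with both compounds, 44.3, 49.7 and 53.9 CPM with GW3965, 45.4, 52.1 and 51.6 CPM with CT99021, and 36.5, 36.4 and 39.7 CPM in control. Every treated library lay above every control, every library with both compounds lay above every library with either compound, and GW3965 and CT99021 alone overlapped. Lpcat3 rose by 0.74 ± 0.08 with both compounds (edgeR adjusted p = 4.0e-04, and 0.0732 without the block) and by 0.40 ± 0.08 with CT99021 (0.00811, and 0.346 without the block). The CT99021 call was lost without control replicate 2 (edgeR adjusted p = 0.0602). CT99021 on top of GW3965 raised it by 0.35 ± 0.07 (edgeR adjusted p = 0.0103, and 0.336 without the block), a call lost without GW3965 replicate 1 (0.0577). In the 7 libraries that difference was 0.25. GW3965 alone gave 0.39 ± 0.08 (95% interval 0.22 to 0.56), at place 7 of 15608 by p, and did not pass (edgeR adjusted p = 0.886). GW3965 on top of CT99021 gave 0.34 ± 0.07 (95% interval 0.17 to 0.50, edgeR adjusted p = 0.734).

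**Figure D2:**
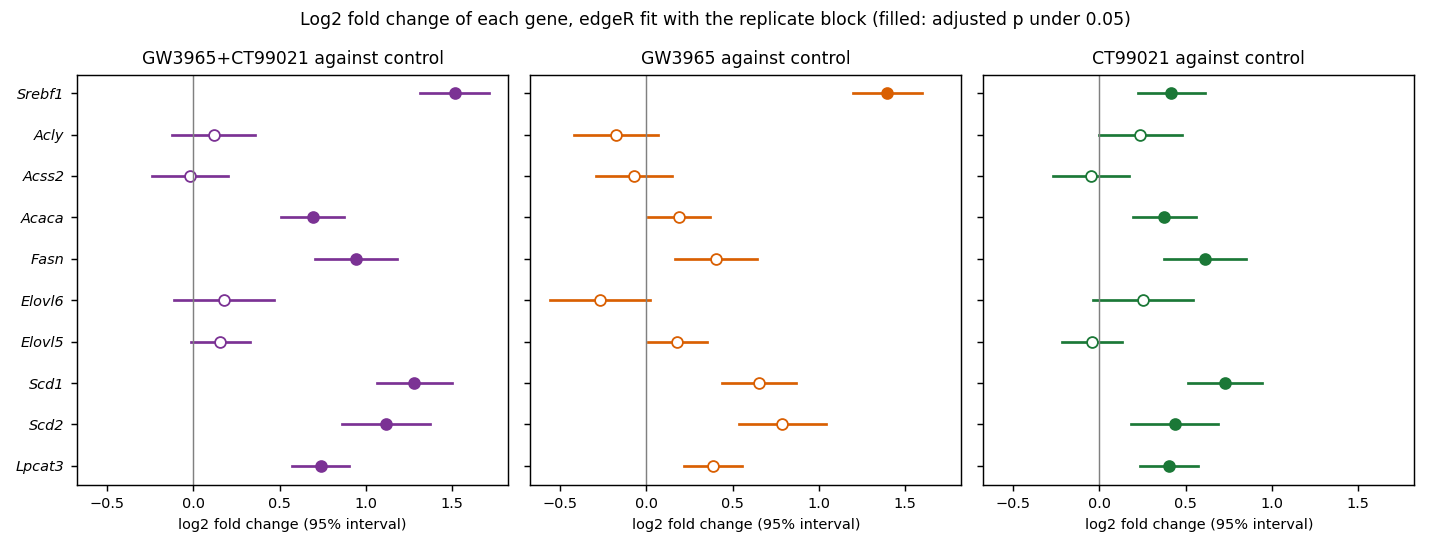
Log2 fold change against control of each gene (points) with its 95% interval (lines), from edgeR's fit with the replicate block, for GW3965+CT99021, GW3965 and CT99021. Filled points have an adjusted p under 0.05, which are 6, 1 and 6 of the 10 genes.

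Counted by comparison, 6 of the 10 genes rose and 0 fell with both compounds against control (Srebf1, Acaca, Fasn, Scd1, Scd2 and Lpcat3), where 11.3% of all genes rose and 8.95% fell. Without the block edgeR called 2 of the 10, Srebf1 and Scd1, and 0.115% of all genes. The median log2 fold change of the 10 was 0.71, against 0.01 over all genes. All 3 libraries with both compounds lay above all 3 controls for 6 of the 10, where 9.13% of all genes did so, and below for 0, where 8.18% did so. With GW3965 alone 1 of the 10 rose (Srebf1) and 0 fell, where 0.0192% of all genes rose and 0% fell, 3 genes in all, the others being Abca1 and Abcg1. In the fit without the block edgeR called 0 of the 10 and 0% of all genes, with 4 of the 10 and 23 of all genes at an unadjusted p under 0.05. DESeq2 called 3 of the 10 with the block and 1 without, and limma-voom called 0 without it. The median of the 10 was 0.29 after GW3965, against -0.0032 over all genes. All 3 GW3965 libraries lay above all 3 controls for 5 of the 10 (Srebf1, Fasn, Scd1, Scd2 and Lpcat3), where 1.26% of all genes did so, and below for 1 of the 10 (Acss2), where 1.51% did so. With CT99021 alone 6 of the 10 rose (Srebf1, Acaca, Fasn, Scd1, Scd2 and Lpcat3) and 0 fell, where 8.23% of all genes rose and 7.59% fell. The fit without the block called 0 of the 10 and 0.0577% of all genes, with 4 of the 10 and 1514 of all genes at an unadjusted p under 0.05. DESeq2 without the block called 1 of the 10, and limma-voom 0. The median of the 10 was 0.39 after CT99021, against 0.02 over all genes. All 3 CT99021 libraries were above all 3 controls for 4 of the 10 (Acly, Fasn, Scd1 and Lpcat3), where 7.22% of all genes were, and below for 0, where 7.62% were. These 3 comparisons share the control libraries.

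GW3965 added to CT99021 raised 1 of the 10 (Srebf1) and lowered 0, where 0.0192% of all genes rose and 0% fell. In edgeR without the block 0 of the 10 and 0% of all genes were called, with 4 of the 10 and 165 of all genes at an unadjusted p under 0.05, while DESeq2 called 3 of the 10 with the block and 1 without. In that comparison 4 of the 10 (Srebf1, Scd1, Scd2 and Lpcat3) had all 3 libraries with both compounds above all 3 with CT99021, where 1.66% of all genes did so, and 0 of the 10 lay below, where 1.19% did so. CT99021 added to GW3965 raised 5 of the 10 (Acaca, Fasn, Elovl6, Scd1 and Lpcat3) and lowered 0, where 11.8% of all genes rose and 8.81% fell. The fit without the block called 0 of the 10 and 0.0769% of all genes, with 5 of the 10 and 1771 of all genes at an unadjusted p under 0.05, while DESeq2 called 6 of the 10 with the block and 1 without. For 5 of the 10 all 3 libraries with both compounds lay above all 3 with GW3965, where 8.18% of all genes did so, and 0 lay below, where 7.2% did so. The medians of the 10 were 0.32 for adding GW3965 and 0.34 for adding CT99021, against 0.0030 and 0.01 over all genes.

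Whether the response to either compound changed with the other was tested as an interaction on the log2 scale. With the block edgeR called 0 of the 10 higher, where 0% of all genes were called higher, and 0 of the 10 lower, where 0% were called lower. Without it the count was 0 of the 10 and 0% of all genes. DESeq2 called 0 of the 10 with and without the block, and limma-voom 0 without it. In edgeR 523 of all genes with the block and 74 without had an unadjusted p under 0.05. Srebf1 was the 1 member under that unadjusted level, at -0.30 ± 0.12 (95% interval -0.57 to -0.03, unadjusted p = 0.035, edgeR adjusted p = 0.999). The 95% intervals of the other 9 included 0, the widest being that of Elovl6 at -0.22 to 0.60. On the CPM scale, Srebf1 was 167 CPM above control with both compounds, and the increases with each compound alone added up to 179 CPM. The corresponding values were 464 and 429 CPM for Fasn, 140 and 119 CPM for Scd1, 1471 and 1372 CPM for Scd2, 62.0 and 44.7 CPM for Acaca, and 25.5 and 24.0 CPM for Lpcat3. These sums were not tested.

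Averaging each compound's effect over the absence and presence of the other uses all 12 libraries, and was added after the values had been seen. It draws on the libraries of the comparisons above and is no independent repeat of them. GW3965 averaged in this way raised 3 of the 10 and lowered 0, where 0.0384% of all genes rose and 0% fell. The 3 were Srebf1 at 1.25 ± 0.06 (edgeR adjusted p = 2.5e-05, and 0.017 without the block), Scd2 at 0.73 ± 0.08 (0.0122, and 1 without the block) and Scd1 at 0.60 ± 0.07 (0.0122, and 0.646 without the block). The 3 other genes called were Abca1, Abcg1 and Scd3, the last uncertain for the reason given with Scd2. Next in order was Lpcat3, at 0.36 ± 0.05 (edgeR adjusted p = 0.0927). Without the block edgeR called 1 of the 10 and 0.0128% of all genes, namely Srebf1 and Abcg1. The Scd1 call was lost without control replicate 1, 2 or 3 (edgeR adjusted p = 0.0543, 0.0666 and 0.0814), without GW3965+CT99021 replicate 3 (0.0601) and without all libraries numbered 3 (0.0834). The Scd2 call was lost without control replicate 1, 2 or 3 (edgeR adjusted p = 0.0595, 0.0666 and 0.0814) and without GW3965+CT99021 replicate 1 or 3 (0.059 and 0.057). Acaca at 0.25 ± 0.06, Fasn at 0.37 ± 0.07 and Elovl5 at 0.19 ± 0.05 did not pass (edgeR adjusted p = 0.682 for each), although their 95% intervals lay above 0. Acly at -0.15 ± 0.08 and Elovl6 at -0.17 ± 0.09 did not pass either (0.682 for both).

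CT99021 averaged in the same way raised 8 of the 10 and lowered 0, where 19.1% of all genes rose and 15.9% fell. Without the block edgeR called 2 of the 10 (Scd1 and Lpcat3) and 4.10% of all genes. The log2 fold changes of the 8 ran from 0.27 ± 0.08 for Acly (edgeR adjusted p = 0.0223, and 0.263 without the block) and 0.27 ± 0.06 for Srebf1 (0.00779, and 0.255) to 0.57 ± 0.08 for Fasn (3.9e-04, and 0.0734) and 0.68 ± 0.07 for Scd1 (1.1e-04, and 0.0103). Acaca rose by 0.44 ± 0.06 (edgeR adjusted p = 4.0e-04, and 0.0875 without the block), Scd2 by 0.38 ± 0.08 (0.00476, and 0.194) and Lpcat3 by 0.38 ± 0.05 (6.0e-04, and 0.0465). Elovl6 rose by 0.35 ± 0.09 (edgeR adjusted p = 0.0152, and 0.11 without the block), and this was lost without CT99021 replicate 1 (0.0505). The Acly call was lost without 7 of the 12 libraries taken singly: control replicate 1 or 2, CT99021 replicate 2, GW3965+CT99021 replicate 1 or 2, and GW3965 replicate 2 or 3, with adjusted p between 0.0527 and 0.0713. Acss2 at 0.0014 ± 0.07 and Elovl5 at -0.03 ± 0.05 were the 2 that did not pass (edgeR adjusted p = 0.99 and 0.688).

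**Figure D3:**
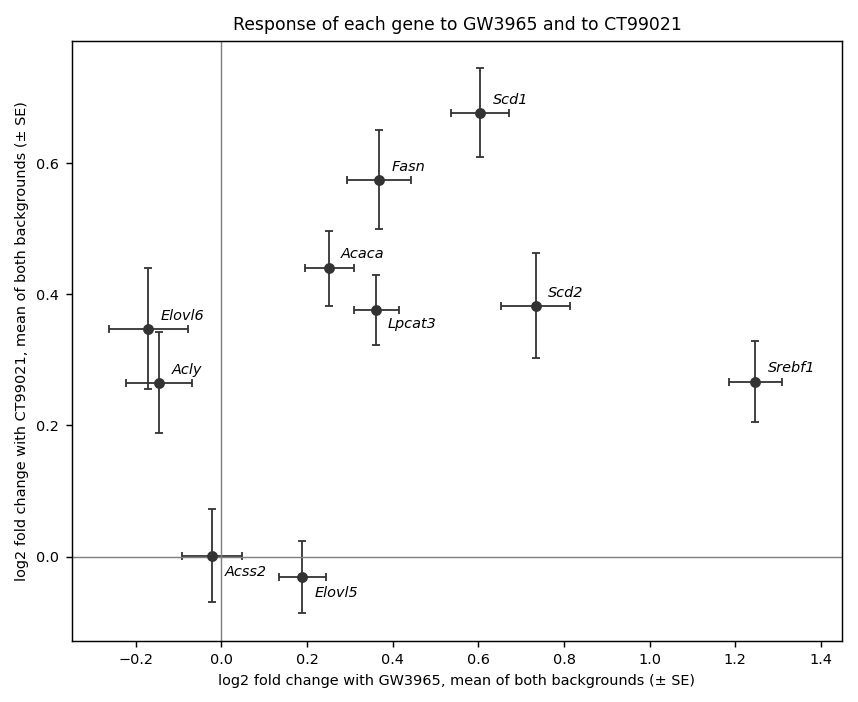
Log2 fold change with GW3965 (x axis) and with CT99021 (y axis), each averaged over both backgrounds of the other compound, for the 10 genes. Points are edgeR estimates with the replicate block and bars are ± SE. Srebf1 lies farthest right at 1.25, Scd1 highest at 0.68, and Acly and Elovl6 lie left of 0.

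Ratios taken within each replicate number show how evenly the libraries carried these differences. The GW3965 ratio of Srebf1 was 1.23, 1.33 and 1.64 on the log2 scale for numbers 1 to 3, and that of Scd2 was 0.61, 0.72 and 1.02. For Acly it was -0.01, -0.07 and -0.43, and for Elovl6 -0.03, -0.04 and -0.73. The lower values of Acly and Elovl6 after GW3965 thus lay mainly in number 3. Levels in number 3 were lower than the mean of numbers 1 and 2 in all 4 groups for Fasn, Acaca, Elovl5, Scd2 and Acly. The log2 difference was -0.69 to -0.21 for Fasn, -0.55 to -0.23 for Acaca and -0.50 to -0.21 for Elovl5. It was -0.73 to -0.07 for Scd2 and -0.62 to -0.02 for Acly. Lpcat3 was higher in number 3 in all 4 groups, by 0.09 to 0.29. Number 3 also differed in other genes, for 1 list only where GW3965 was present. That list, 8 amino acid and endoplasmic reticulum stress genes, summed to 2644 CPM in library 3 with both compounds and 2241 CPM with GW3965. The other 10 libraries had at most 1358 CPM. Library 3 had 1160 CPM with CT99021, against 1199 to 1275 CPM in libraries 1 and 2. In control it had 996 CPM, against 921 to 991 CPM. Of the 8, 1 gene rose with both compounds (Hspa5, a chaperone, at 0.58, edgeR adjusted p = 0.0187), where 11.3% of all genes rose, and 0 rose with GW3965. Mesenchyme and pericyte genes summed to 2591 to 3932 CPM in the libraries numbered 3 and to 238 to 2287 CPM in the others, and 4 of those 8 genes rose with both compounds. Leaving the block out, edgeR called 0 genes of either list in the comparisons against control. The part of these genes in the members' values was not tested.

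**Figure D4:**
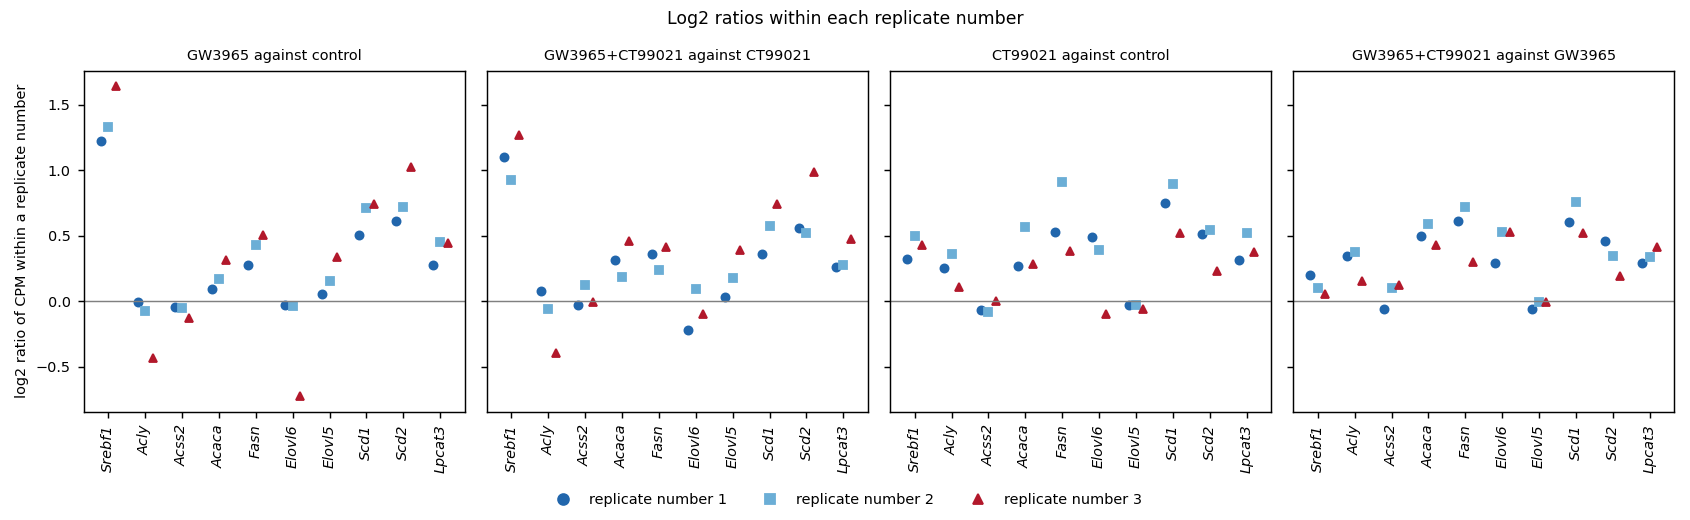
Log2 ratio of CPM within each replicate number (symbols) for the 10 genes, for GW3965 and CT99021 each without and with the other compound. Number 3 gives the lowest GW3965 ratios of Acly (-0.43) and Elovl6 (-0.73) and the highest of Srebf1 (1.64).

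Across the 12 libraries, with the mean of each replicate number removed, the members fell into patterns that are given as a description, since the points share the 4 treatments. Srebf1 tracked Scd2 most closely, with a Pearson r of 0.95 between log2 CPM values, and Lpcat3 (0.82) and Elovl5 (0.80) next. Fasn was closest to Acaca (r = 0.97) and Scd1 (0.97), and Scd1 to Lpcat3 (0.99). Acly was closest to Elovl6 (r = 0.88) and ran against Elovl5 (-0.70), while its r with Srebf1 was -0.29. Of 14636 other genes compared in the same way, those most like Srebf1 were Rnf145 (r = 0.945), a ubiquitin ligase gene, Acsl3 (0.939), a long-chain acyl-CoA synthetase gene, Scd3 (0.918), Scd4 (0.913) and Abca1 (0.895), the cholesterol exporter. Rnf145 averaged 196 CPM with both compounds, 185 with GW3965, 161 with CT99021 and 144 CPM in control. Abca1 averaged 200 ± 142 CPM with both compounds and 235 ± 209 CPM with GW3965. It averaged 48.7 ± 49.8 CPM with CT99021 and 59.8 ± 46.4 CPM in control. The genes most like Scd1 were Dimt1 (r = 0.945), Wasl (0.944), Scd3 (0.944), Scd4 (0.940) and Iffo2 (0.936). The likeness of Scd3 and Scd4 is uncertain, since their counts were a near-constant share of those of Scd2 and the counting of reads with several positions is not given.

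Other genes of fatty acid metabolism were counted from lists, beside the shares of all genes that passed in the same comparisons. Those shares were 11.3% higher and 8.95% lower with both compounds, 8.23% higher and 7.59% lower with CT99021, and 0.0192% higher and 0% lower with GW3965. Among 15 further desaturation and elongation genes tested, 9 rose and 0 fell with both compounds, 7 rose with CT99021 and 0 with GW3965. The medians were 0.36, 0.35 and 0.07, against 0.01, 0.02 and -0.0032 over all genes. Scd3 was at 1.09 with both compounds (edgeR adjusted p = 4.1e-04) and Scd4 at 0.91 (0.00169), both uncertain because the counting of reads with several positions is not given. Elovl1, which extends very long saturated chains, rose by 0.77 (edgeR adjusted p = 0.00274), and Ptplad1, a dehydratase of the elongation cycle, by 0.58 (0.00522). Of 19 further genes of fatty acid synthesis and activation, 5 rose and 1 fell with both compounds, 1 rose with CT99021 and 0 with GW3965. Among them were the acyl-CoA synthetase genes Acsl3 at 0.58 (edgeR adjusted p = 0.00431), Acsl1 at 0.46 (0.0155) and Acsl4 at 0.45 (0.0148). Fabp7, a brain fatty acid binding protein that is also on the progenitor list, was the 1 that fell, by 0.68 (edgeR adjusted p = 0.0162), and 6 of the 9 progenitor genes fell with both compounds, against 8.95% of all genes. Leaving the block out, edgeR called 0 genes of these 2 lists and 0 of the progenitor genes in the 3 comparisons.

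A list of glycerolipid and phospholipid genes held mostly synthesis genes, but also Plin2, Pnpla2 and Pnpla3. Of its 28 genes tested, 10 rose and 2 fell with both compounds, against 11.3% and 8.95% of all genes. With CT99021 6 rose and 3 fell, against 8.23% and 7.59% of all genes, and with GW3965 0 passed. Lpin1, a phosphatidate phosphatase gene, was at -1.18 with both compounds (edgeR adjusted p = 0.00243) and Pnpla2, the triglyceride lipase gene, at -0.78 (0.00421). Pnpla3, a lipid hydrolase gene known in liver as an SREBP-1 target, was at 1.02 (edgeR adjusted p = 0.0178) and Pemt, a phosphatidylethanolamine methyltransferase gene, at 0.70 (0.0455). Of 25 genes of beta-oxidation and its regulation, 0 rose and 4 fell with both compounds, 0 rose and 4 fell with CT99021, and 0 passed with GW3965. Over all genes 8.95% fell with both and 7.59% with CT99021. Those that fell with both were Ppargc1a, a coactivator gene, by 0.64 (edgeR adjusted p = 0.0357), Decr1, a dienoyl-CoA reductase gene, by 0.58 (0.0304), Acadm, the medium-chain acyl-CoA dehydrogenase gene, by 0.40 (0.0133), and Cpt1c, a brain carnitine palmitoyltransferase gene, by 0.33 (0.0246). Leaving the block out, edgeR called 0 of the glycerolipid and beta-oxidation genes in these comparisons.

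Genes known to answer to the compounds outside fatty acid synthesis were counted beside them. Over all genes, 11.3% rose and 8.95% fell with both compounds, 8.23% rose and 7.59% fell with CT99021, and 0.0192% rose and 0% fell with GW3965. Of 7 LXR targets of sterol transport, 3 rose and 1 fell with both compounds, 2 rose with GW3965, and 0 rose and 1 fell with CT99021. Abca1 rose by 1.79 with both compounds (edgeR adjusted p = 2.7e-04) and by 1.89 with GW3965 (0.00388). Abcg1, another sterol exporter, rose by 0.90 (edgeR adjusted p = 0.0208) with both, and Mylip, a ubiquitin ligase gene, by 0.65 (0.0474), while Abcg4 fell by 0.35 (0.0446). Of 7 Wnt feedback genes, 6 rose with both compounds, 7 with CT99021 and 0 with GW3965. Axin2 rose by 1.56 with both compounds (edgeR adjusted p = 2.0e-04), Notum by 2.55 (3.8e-05), Sp5 by 2.43 (0.00276), Nkd1 by 2.16 (2.5e-04) and Lef1 by 1.61 (7.7e-04). Of 19 cholesterol synthesis and uptake genes, 3 rose with both compounds, 6 with CT99021 and 0 with GW3965. They included Lss, lanosterol synthase, at 0.64 with both compounds (edgeR adjusted p = 0.0298), and Cyp51, lanosterol demethylase, at 0.35 (0.041). In the fit without the block 0 genes of these 3 lists were called in the 3 comparisons against control.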

How the data were processed

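RNA sequencing of 12 neurosphere libraries was analysed from the table of raw read counts per gene that the authors deposited, with no normalisation in its values. The submitters' processing notes name Bowtie and the mm9 build. The sources used here name no counter or annotation and do not say how strand or multi-mapping reads were handled. Rows of 1217 repeat families held 0.196% to 0.643% of the counts and entered neither library sizes nor tests. Positions are as listed, and the base from which they count is not stated. Library totals over gene rows were 9646424 to 21314093 counts, and no pair of libraries within a group agreed within sampling noise (chi-square per gene 29.3 to 141 over genes with at least 10 counts).

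Groups came from the labels. Genes were tested by quasi-likelihood F tests (edgeR 4.0.16, R 4.3.3) fitted to all 12 libraries with a mean per group, TMM factors and filterByExpr (15608 genes), and Benjamini-Hochberg adjustment over all of them. Errors are SE for log2 fold changes and SD for CPM, which were computed from the counts with these factors. The numbers 1 to 3 in the labels were checked for pairing on deviations from group means. All 18 same-numbered pairs correlated across genes (r = 0.496 to 0.828, against -0.677 to 0.241 for other pairs), and 12 of 12 libraries were closest to their own number. No label states the pairing, which was read from the data. The fit with the number as a block is therefore given beside the fit without it, and the coefficient of biological variation was 12.7% with it and 33.4% without. Alternatives were RLE factors, no filter, DESeq2 1.42.0, limma-voom (limma 3.58.1), each library left out, the libraries numbered 3 left out, 7 libraries (those numbered 3 and GW3965+CT99021 replicate 2 left out) and Lars2 kept out of library sizes. Scripts were tested on simulated data for CT99021 against control only, which does not measure power at the sizes of most differences reported here.

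The members, lists and alternatives were chosen with earlier results of these data known. From each pathway list up to 4 genes past the block fit in GW3965+CT99021 against control were named by absolute log2 fold change, with Abca1, Axin2, Srebf2, Insig1 and Mlxipl always. A gene of the cholesterol list that this rule names is not reported here. The 5 genes most like Srebf1 and the 5 most like Scd1 were named by Pearson r. The 2 averaged comparisons were added after values were seen. Abcg1 and Scd3 in their counts, and Hspa5 in the count of stress genes, were named for the same reason.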

Additional observations from a re-analysis of the deposited data

How the results depend on the processing

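The number of the 10 genes past the test depended on the replicate block and on the tool. Without the block edgeR called 0 with GW3965, 0 with CT99021, 2 with both compounds, 0 for GW3965 added to CT99021, 0 for CT99021 added to GW3965, and 1 and 2 for GW3965 and CT99021 averaged. With the replicate block these counts were 1, 6, 6, 1, 5, 3 and 8, and by DESeq2 without the block 1, 1, 6, 1, 1, 3 and 4. RLE factors or no filter on low counts, without the block, left 1 for CT99021 averaged. Leaving out 1 library at a time without the block gave 0 to 2 with both compounds, 0 to 1 for GW3965 averaged and 1 to 3 for CT99021 averaged. With the block, GW3965 against control gave 3 with no filter, by DESeq2 and in the 7 libraries, and 2 without the libraries numbered 3. GW3965 added to CT99021 gave 3 by DESeq2 and 2 in the 7 libraries and also without those numbered 3, and GW3965 averaged gave 5 by DESeq2. Leaving out 1 library at a time with the block gave 1 to 3 with GW3965, 2 to 7 with CT99021, 3 to 6 for CT99021 added to GW3965 and 1 to 3 for GW3965 averaged. In the 7 libraries the single library with both compounds was assumed to vary like the other groups. The causes of these shifts were not tested.

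No gene past the test in the block fit changed sign under its 18 alternatives. The changes of sign concerned differences that did not pass. For CT99021 averaged, Acss2 turned to -0.010 with RLE factors, -0.016 with no filter, -0.014 by DESeq2 and -0.0024 by limma-voom. With the block it turned to -0.013, -0.018 and -0.015 with the first 3 of these, -0.047 without the libraries numbered 3, -0.085 in the 7 libraries and -0.032 with Lars2 out of library sizes. In the 7 libraries Elovl5 with both compounds was -0.0044, Acly and Acss2 for GW3965 added to CT99021 were 0.030 and -0.034, Acss2 for CT99021 added to GW3965 was -0.079, and the interactions of Elovl6 and Elovl5 were -0.16 and -0.062. Without the libraries numbered 3 the corresponding values were 0.0067 for Acly, -0.0032 for Acss2 with CT99021 added to GW3965, and -0.036 and -0.0080 for the interactions of Elovl6 and Elovl5.

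Leaving out 1 library at a time without the block moved Elovl5 with CT99021 between -0.18 and 0.11 and Acss2 with both compounds between -0.060 and 0.026. For GW3965 added to CT99021 the ranges were -0.013 to 0.074 (Acss2), -0.22 to 0.077 (Acly) and -0.21 to 0.018 (Elovl6). For CT99021 added to GW3965 Elovl5 ranged from -0.12 to 0.060. Interactions ranged from -0.13 to 0.16 (Elovl5), -0.28 to 0.16 (Fasn), -0.33 to 0.077 (Scd2), -0.084 to 0.24 (Acly), -0.042 to 0.29 (Acaca), -0.21 to 0.017 (Scd1) and -0.16 to 0.041 (Lpcat3). For CT99021 averaged the ranges were -0.019 to 0.027 (Acss2) and -0.10 to 0.044 (Elovl5).

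With the block the same steps gave -0.096 to 0.020 for Elovl5 with CT99021 and -0.057 to 0.021 for Acss2 with both compounds. For GW3965 added to CT99021 they gave -0.0085 to 0.068 (Acss2) and -0.20 to 0.010 (Acly), and for CT99021 added to GW3965 -0.088 to 0.035 (Elovl5) and -0.010 to 0.094 (Acss2). Interactions gave -0.048 to 0.075 (Elovl5), -0.17 to 0.046 (Fasn), -0.085 to 0.18 (Acly), -0.015 to 0.30 (Elovl6) and -0.25 to 0.015 (Scd2), and Acss2 for CT99021 averaged -0.031 to 0.023. Of 3080 values under an alternative, not all of them single-gene values, 2772 were classed as unchanged. All alternatives were recomputed from the same 12 libraries, so agreement between them is no independent repeat. With all 12 libraries the 95% interval of Acss2 included 0 in each of the 8 comparisons, with and without the block.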

Other observations

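Adding CT99021 to GW3965 raised 5 of the 10 lipid genes, whereas of the 7 LXR targets of sterol transport 0 rose and 3 fell in the same comparison, where 11.8% of all genes rose and 8.81% fell. Abcg1 fell by 1.02 on the log2 scale (edgeR adjusted p = 0.0106 with the replicate block), Abcg4 by 0.59 (0.00548) and Smpdl3a, a phosphodiesterase gene, by 0.51 (0.0246). Abca1 gave -0.10 (edgeR adjusted p = 0.693). Averaged over both backgrounds, CT99021 likewise gave 0 higher and 3 lower of the 7. With no block edgeR called 0 of the 10 and 0 of the 7 when CT99021 was added to GW3965, and 2 of the 10 and 1 of the 7 for the average. Smpdl3a was named after its value was seen, and the difference between the 2 sets of genes was not tested.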
